A study of Mus musculus with 6 samples.

Results

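Semaphorins, plexins and neuropilins form a guidance system of secreted or membrane-bound cues and their receptors, and 32 of their genes were measured in the caudal artery, the main artery of the tail, with and without Notch3. They were taken as every probe set whose only platform gene symbol begins with Sema or Plxn or is Nrp1 or Nrp2, which gave 79 of the 45037 probe sets that are not chip controls. The 32 genes are 2 neuropilins, 9 plexins, 20 semaphorins and Plxna4os1, a transcript annotated on the strand opposite Plxna4, out of 18193 genes with a symbol of their own. For each gene the brightest probe set, by the mean of the 6 arrays, stands for it, and for Nrp2 every probe set is given.

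Arteries came from mice at 4 weeks of age (postnatal day 28) that were Notch3+/+ or Notch3-/-, with 3 arrays of the MOE430 2.0 chip per genotype. Each array was hybridised with RNA of arteries pooled over several animals. The Notch3+/+ replicates 1, 2 and 3 pooled 4, 3 and 3 mice, and each Notch3-/- replicate pooled 4. The labels name no other allele or treatment, and they describe neither the design of the targeted allele nor the strain or sex. Each array measured a whole dissected artery, so the values average over all its cell types.

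Semaphorins of class 3 are secreted and mostly bind a neuropilin, a co-receptor with a short tail, which presents them to an A or D plexin that carries the signal into the cell. Membrane-bound semaphorins of the other classes bind plexins directly, class 4 members chiefly the B plexins. Plexins act on small GTPases and through them on the actin cytoskeleton and on integrins. Neuropilins are also co-receptors of vascular endothelial growth factors (VEGF). Nrp1 is typical of arterial endothelium and Nrp2 of veins and lymphatics, and Plxnd1 guides vessel patterning in the embryo.

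Notch3 read 9.94 to 10.09 on its brighter probe set in Notch3+/+ pools and 5.87 to 6.51 in Notch3-/- pools, so the labels match the transcript. Smooth muscle markers were bright: Acta2 (smooth muscle actin) read 13.18 to 13.25, Tagln 12.87 to 13.07 and Myh11 (smooth muscle myosin) 11.80 to 12.21 over the 6 arrays. Notch3-/- replicate 2 stood apart on the first principal component, at 39.5 against -17.1 to 5.85 for the other arrays. All levels here are log2 expression values, and all changes are Notch3-/- minus Notch3+/+ on that log2 scale. The adjusted p is from limma with Benjamini-Hochberg adjustment over all 27027 probe sets whose mean reached 3.83, and a probe set passed at an adjusted p under 0.05.

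Nrp2 rose in Notch3-/- arteries on the 1 of its 4 probe sets that passed, by 0.81 or 1.75-fold, and its other 3 probe sets read 0.35 to 0.60 higher without passing. Sema3d, a secreted class 3 semaphorin, had the largest difference of the 29 members tested, 0.98 on its brightest probe set (1.98-fold) and 0.87 on the other, but neither passed. No member passed lower in the fit as reported. By 1 probe set per gene, 0 of 29 tested members passed with limma, against 0.322% of all 12732 tested genes, and 0 passed when the variance was modelled with trend and robust. At an unadjusted p under 0.05 there were 6 members (20.7%, against 11.9% of all tested genes). Of these, 5 were higher (Nrp2, Nrp1, Sema3d, Sema3c and Sema3g, against 7.10% of all) and 1 was lower (Plxnb3, against 4.81%).

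Counted by probe set, 1 of 58 tested passed (1.72%, against 0.252% of all probe sets in either direction and 0.137% higher in Notch3-/-). At an unadjusted p under 0.05 there were 15 (25.9%, against 11.4% of all), 9 of them higher (15.5%, against 6.50%) and 6 lower (10.3%, against 4.85%). The 9 higher ones included all 4 Nrp2 and both Sema3d probe sets, and probe sets of 1 gene are not independent observations. The 21 member probe sets that were not tested lay below the level filter, and with them 3 genes, Sema3a, Sema3e and Plxna4os1. The 3 Notch3-/- pools all lay above the 3 Notch3+/+ pools for 5 tested members (17.2%, against 9.46% of all tested genes) and all below for another 5 (17.2%, against 7.88%), and over all tested genes 17.3% were separate in 1 direction or the other. The median change of the tested members was 0.03, with 15 positive and 14 negative, beside a median of -0.0033 over all tested genes. The median size of the change, regardless of sign, was 0.13 against 0.10. Of the 21 members with more than 1 tested probe set, 19 had the same sign on all of them, and Plxna1 and Sema6a did not.

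**Figure D1:**
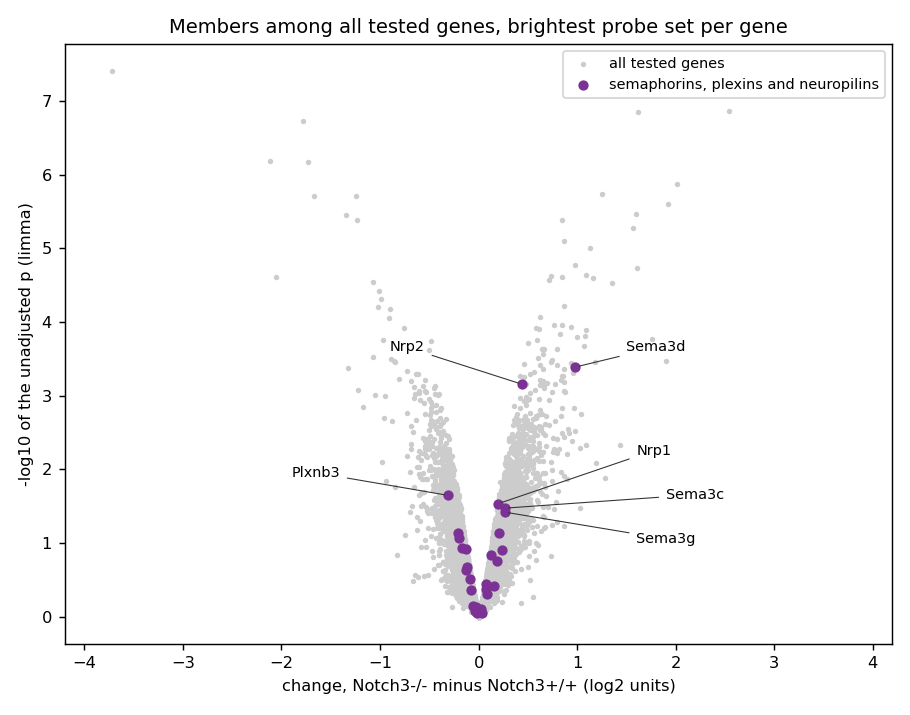
Each point is a gene by its brightest probe set, with the change in log2 units on the horizontal axis and -log10 of limma's unadjusted p on the vertical axis; grey points are all 12732 tested genes and purple points the 29 tested members. Sema3d (0.98) and Nrp2 (0.44) lie apart from the other members, which stay between -0.31 and 0.27.

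Because Nrp2 and Sema3d carried the clearest differences, the 250 bases before their annotated starts are shown, from RefSeq on GRCm38.p6 (Nrp2 at chr1:62703067-62703316 and Sema3d at chr5:12382916-12383165, both on the + strand), with each CpG dinucleotide in capitals.
Nrp2: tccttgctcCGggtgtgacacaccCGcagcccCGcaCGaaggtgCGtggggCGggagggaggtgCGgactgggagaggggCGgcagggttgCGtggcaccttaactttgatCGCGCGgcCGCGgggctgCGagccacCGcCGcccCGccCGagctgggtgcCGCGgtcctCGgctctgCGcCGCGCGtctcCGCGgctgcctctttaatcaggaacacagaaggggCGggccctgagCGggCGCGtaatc
Sema3d: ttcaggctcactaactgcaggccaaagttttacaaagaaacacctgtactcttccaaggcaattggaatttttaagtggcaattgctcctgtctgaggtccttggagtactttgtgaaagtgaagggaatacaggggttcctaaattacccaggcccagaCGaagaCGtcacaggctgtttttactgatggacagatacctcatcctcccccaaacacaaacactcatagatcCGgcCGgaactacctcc
The Nrp2 stretch holds 32 CpG and the Sema3d stretch 4, so the promoters of the 2 genes differ in base composition. With the first 50 bases after the start added, they hold 37 and 8. The median of such windows is 7 over all 32851 promoters and 15 over the member promoters, so Sema3d lies near the general median. In the full 300-base windows of the table, which add the first 50 bases after the start, neither gene has a match on either strand to GTGGGAA, the core bound by the Notch effector RBPJ, to its shorter form TGGGAA, which every GTGGGAA also contains, to the E-box CACGTG, or to the CArG box of serum response factor. These motifs occur in 6.38%, 25.6%, 7.15% and 1.63% of the 32851 promoters of the table. The table held 37 promoters of 26 of the 32 genes, of which 1, 8, 3 and 1 had these motifs. A window without these letters says nothing about the factor elsewhere at the gene.

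Among the neuropilins, Nrp2 was higher in every Notch3-/- pool on all 4 probe sets. Over all tested probe sets 8.43% were separate in this direction. The 4 read the same gene on the same arrays, so they are not independent observations. Probe set 1456778_at read 7.02, 6.81 and 6.70 in Notch3+/+ replicates 1 to 3 and 7.57, 7.72 and 7.67 in Notch3-/- replicates 1 to 3. The genotypes did not overlap, and the means of 6.84 ± 0.16 and 7.65 ± 0.08 (SD, n = 3) differed by 0.81 (SE 0.10, 95% interval 0.57 to 1.05, adjusted p = 0.0348). Probe set 1426528_at, the brightest, read 7.17, 7.08 and 7.11 in Notch3+/+ and 7.66, 7.49 and 7.54 in Notch3-/- pools. Its difference was 0.44 (SE 0.08, adjusted p = 0.114), also without overlap.

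Probe set 1435349_at of Nrp2 read 6.95, 6.95 and 6.65 against 7.42, 7.41 and 7.53, a difference of 0.60 (SE 0.10, adjusted p = 0.0983). Probe set 1447343_at read 5.61, 5.48 and 5.31 against 5.75, 5.91 and 5.80, a difference of 0.35 (SE 0.10, adjusted p = 0.269). The genotypes did not overlap on either, and on both, as on 1456778_at, Notch3+/+ replicate 3 gave the lowest value. The changes of the 4 probe sets ranged from 0.35 to 0.81. As a description of this spread, within each array, 1456778_at minus 1447343_at was 1.38 ± 0.04 in Notch3+/+ and 1.83 ± 0.03 in Notch3-/- pools (SD, n = 3), a difference of 0.46. The same within-array comparison of 1456778_at with 1426528_at gave 0.37 and with 1435349_at gave 0.21. Because 1456778_at was set against the others for having the largest change, these contrasts are given with no test. Nrp2 has transcripts with different 3' ends, and which of them each probe set reads was not determined. In a whole artery, more cells of a type and more RNA per cell, or fewer cells and less RNA, cannot be told apart.

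The single call on Nrp2 was not robust to the loss of an array. Calls over all 27027 tested probe sets also fell, from 68 with every array to between 13 and 62 with an array omitted. The adjusted p of 1456778_at from limma was 0.253 and 0.161 when Notch3+/+ replicate 2 or 3 was omitted, and 0.0684, 0.119 and 0.228 when the Notch3-/- pool numbered 1, 2 or 3 was omitted. It was 0.0354 when Notch3+/+ replicate 1 was omitted, and the change stayed between 0.74 and 0.90 over all settings. With all probe sets of each gene averaged, Nrp2 changed by 0.55 with an adjusted p of 0.027 from limma and passed.

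Nrp1, the neuropilin of arterial endothelium, did not pass on any of its 4 probe sets. Its brightest, 1448943_at, read 9.82, 9.82 and 9.72 in Notch3+/+ and 9.99, 10.02 and 9.95 in Notch3-/- pools, which did not overlap and differed by 0.20 (SE 0.07, 95% interval 0.03 to 0.37, adjusted p = 0.387). The other 3 Nrp1 probe sets overlapped between the genotypes, at 0.06 for 1418084_at, 0.17 for 1448944_at and 0.03 for 1457198_at. Within each array the brightest Nrp2 probe set stood 2.67 ± 0.07 below the brightest Nrp1 probe set in Notch3+/+ and 2.42 ± 0.10 below it in Notch3-/- pools (SD, n = 3). The difference between the genotypes in this contrast was 0.24, and as the probes of the genes differ, the contrast is no ratio of their transcripts.

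**Figure D2:**
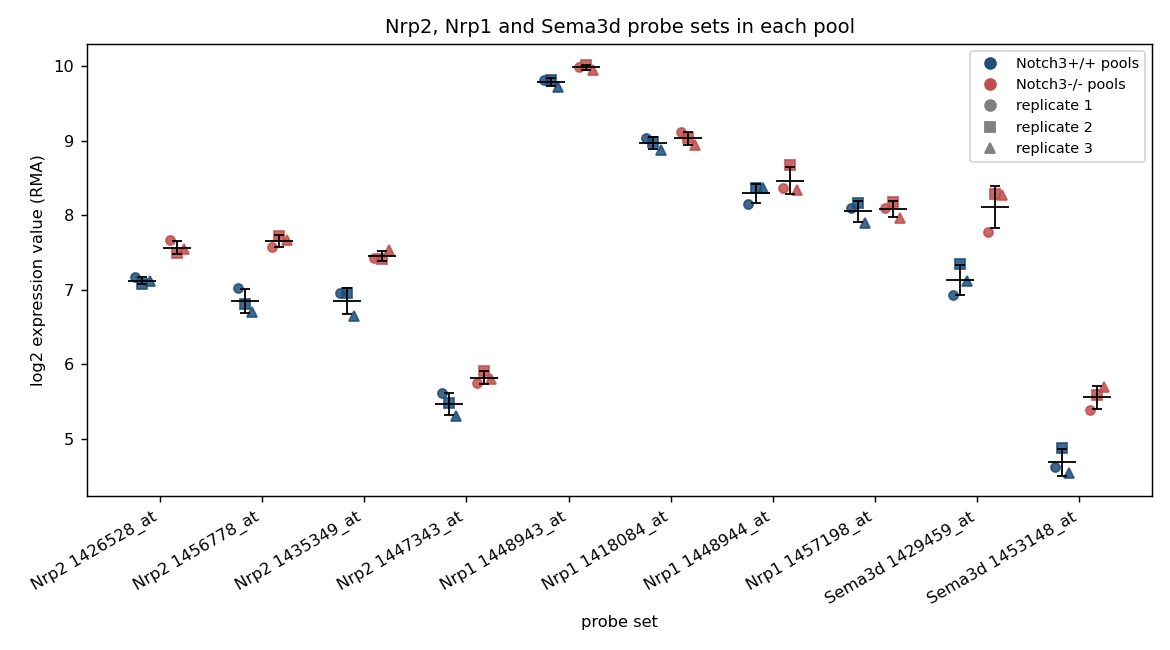
Log2 expression values of every Nrp2, Nrp1 and Sema3d probe set, with 3 Notch3+/+ pools in blue, 3 Notch3-/- pools in red, a symbol per replicate number, and black bars for the mean ± SD. The blue and red points are separate on all 4 Nrp2 and both Sema3d probe sets, and on 1 of the 4 Nrp1 probe sets.

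Of the 7 class 3 semaphorins, the secreted ligands of the neuropilins, 5 were tested, 4 were positive and 0 passed with limma. At an unadjusted p under 0.05, 3 were higher and 0 lower, where 7.10% and 4.81% of all tested genes were. The class median was 0.27. Sema3d, which steers axons and endothelial cells, read 6.93, 7.34 and 7.11 in Notch3+/+ and 7.78, 8.28 and 8.27 in Notch3-/- pools on its brightest probe set. All Notch3-/- pools were higher, and the difference was 0.98 (SE 0.16, 95% interval 0.60 to 1.36, adjusted p = 0.0883). Its dimmer probe set 1453148_at read 4.62, 4.88 and 4.54 against 5.38, 5.59 and 5.69, again without overlap, with a difference of 0.87 (SE 0.12, adjusted p = 0.0501). On both probe sets Notch3+/+ replicate 2 was the highest of its group and Notch3-/- replicate 1 the lowest of its group.

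Sema3d did not pass in the fit as reported, and the side of the threshold it fell on moved with the setting. Its brightest probe set had an adjusted p of 0.0466 without Notch3-/- replicate 1 and 0.0124 with array weights, and 0.0276 when both probe sets were averaged, all from limma. Over the 14 settings Sema3d passed in 4, its change ran from 0.89 to 1.15 and its adjusted p from 0.0124 to 0.393.

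Sema3c, a ligand of both neuropilins that acts in outflow tract development, read 9.20, 9.06 and 9.09 against 9.38, 9.22 and 9.56 in Notch3-/- pools. The pools did not overlap, and the difference was 0.27 (SE 0.10, 95% interval 0.03 to 0.51, adjusted p = 0.403). Its other probe set overlapped, at 0.32. Sema3g, a class 3 member made by arteries, has 1 probe set, which read 8.01, 7.76 and 8.0 against 8.34, 8.12 and 8.11, a difference of 0.27 (SE 0.11, adjusted p = 0.413) without overlap.

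Sema3b, a ligand that acts through neuropilins, had a difference of 0.15 (95% interval -0.24 to 0.54). Sema3f, the classical ligand of Nrp2, read 8.45, 8.51 and 8.62 in Notch3+/+ and 8.50, 8.31 and 8.41 in Notch3-/- pools. The genotypes overlapped, and all 3 Sema3f probe sets were negative, from -0.25 to -0.12 (adjusted p = 0.551 or more). Sema3a, the founding ligand of Nrp1, read 2.14 to 3.61 over its 3 probe sets and all arrays, and Sema3e, which binds Plxnd1 without a neuropilin, read 2.23 to 3.88 over its 4. Both genes were left out of the test as too dim. Sema3d, Sema3a, Sema3e and Sema3c lie in this order on mouse chromosome 5, Sema3a being the next protein-coding gene after Sema3d in RefSeq, Sema3e the fifth after Sema3d and Sema3c the 21st. The neighbour of Sema3d therefore stayed near the bottom of the scale in both genotypes.

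**Figure D3:**
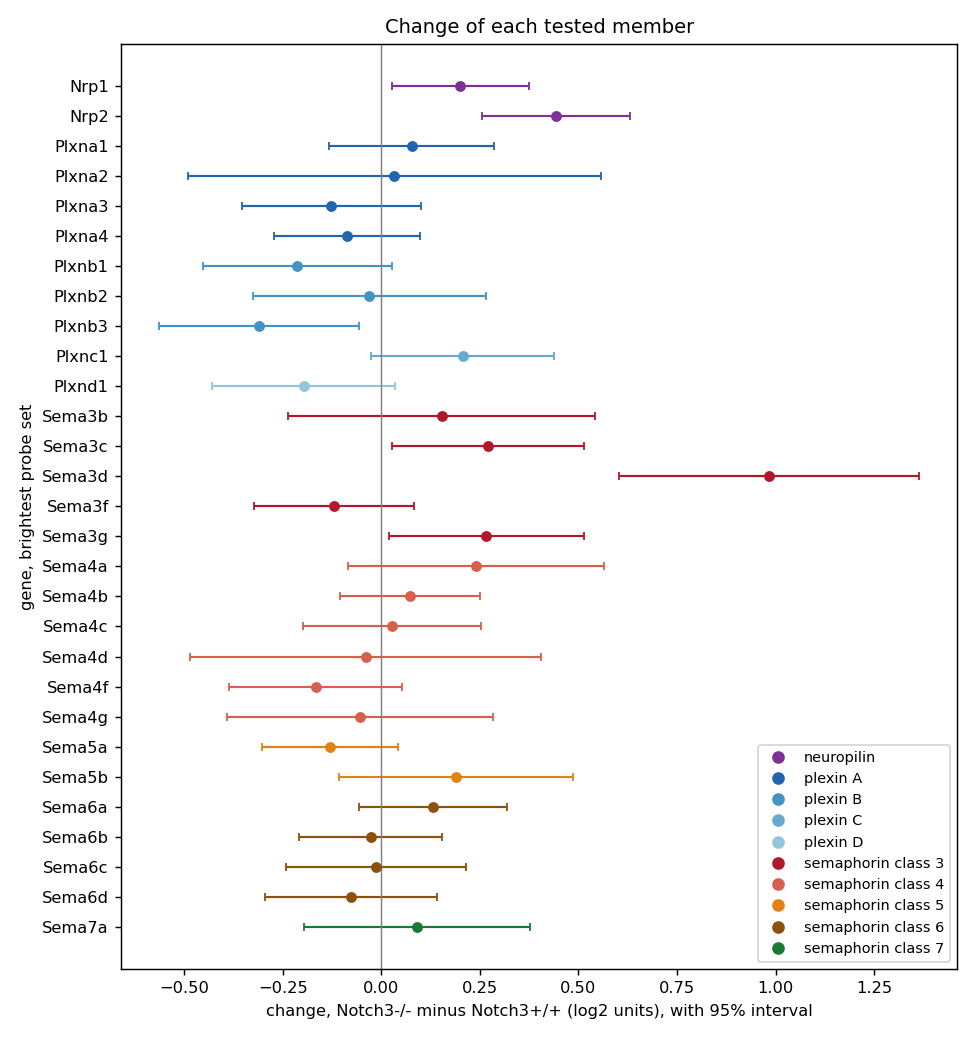
Change of each of the 29 tested members by its brightest probe set, in log2 units, with limma's 95% interval and 1 colour per family or class. The intervals of Nrp1, Nrp2, Sema3c, Sema3d and Sema3g lie above 0, that of Plxnb3 lies below 0, and the others include 0.

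Plexins of the A family, which signal for class 3 and class 6 semaphorins, gave 4 tested members, of which 0 passed and 0 had an unadjusted p under 0.05 with limma. Plxna1 read 0.08, Plxna2 0.03, Plxna3 -0.13 and Plxna4 -0.09. The interval of Plxna2 was the widest of all members, -0.49 to 0.56, and Notch3-/- replicate 2 read 7.73 on it against 6.91 to 7.38 in the other arrays. Without that array the Plxna2 difference was -0.23. Plxna4os1 read 2.31 to 2.71 and was not tested.

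All 3 B plexins, a family known mainly as receptors of class 4 semaphorins that activate RhoA, were negative, and 0 passed. Plxnb3 read 6.23, 6.05 and 6.37 in Notch3+/+ and 6.04, 5.86 and 5.82 in Notch3-/- pools. Every Notch3-/- pool was lower, the nearest at 6.04 beside 6.05, and the difference was -0.31 (SE 0.11, 95% interval -0.56 to -0.06, adjusted p = 0.364). The other Plxnb3 probe set read -0.29, also without overlap. Plxnb1, the receptor of Sema4d, read 7.48, 7.49 and 7.44 against 7.41, 7.06 and 7.30, a difference of -0.21 (adjusted p = 0.49) without overlap, and its other probe set overlapped at -0.34. Plxnb2 read -0.03 (95% interval -0.33 to 0.27), and 0.10 without Notch3-/- replicate 2.

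Plxnd1, the vascular plexin, read 8.73, 8.53 and 8.48 in Notch3+/+ and 8.46, 8.26 and 8.43 in Notch3-/- pools. The pools did not overlap, the nearest at 8.46 beside 8.48, and the difference was -0.20 (SE 0.10, adjusted p = 0.511). Plxnc1, the receptor of Sema7a, read 0.21 (adjusted p = 0.489) on the 1 of its 6 probe sets above the filter, where the pools overlapped.

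Of the 13 tested semaphorins of classes 4 to 7, which are anchored in the membrane, 0 passed with limma and 0 had an unadjusted p under 0.05 by their brightest probe set. Sema4f read 5.32, 5.26 and 5.19 in Notch3+/+ and 5.18, 4.93 and 5.16 in Notch3-/- pools, a difference of -0.17 without overlap (adjusted p = 0.547), and its other probe set read -0.31, also without overlap. Sema4d, the ligand of Plxnb1 known from lymphocytes, read -0.04 on its brightest probe set, where the genotypes overlapped, and -0.24 on a second one, where they did not. Sema4a read 0.24 on both of its probe sets (adjusted p = 0.554 for the brightest), and Sema4b 0.07, Sema4c 0.03 and Sema4g -0.05.

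In class 5, Sema5a read 7.77, 7.71 and 7.80 against 7.68, 7.59 and 7.62, a small difference of -0.13 (adjusted p = 0.549) without overlap, and Sema5b read 0.19. In class 6, ligands of A plexins, Sema6a read 0.13 on its brightest probe set and -0.18 on the next, so its direction depends on the probe set. Sema6b read -0.03 and Sema6c -0.01, and both turned to 0.00 and 0.02 when arrays were centred on their medians. Sema6d read -0.08 on its brightest probe set. A second Sema6d probe set, 1448060_at, read 4.95, 4.92 and 4.84 against 4.62, 4.37 and 4.62, without overlap, with a difference of -0.37 (SE 0.09, adjusted p = 0.24). Sema7a, a semaphorin with a lipid anchor that binds Plxnc1 and integrins, read 0.09 (95% interval -0.20 to 0.38).

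Of the wider pathway, 4 lists of partners were examined, and 0 of their genes passed with limma by their brightest probe set. Of 9 VEGF ligands, receptors and the neuropilin tail-binding adaptor Gipc1, 3 were higher and 1 lower at an unadjusted p under 0.05 (7.10% and 4.81% of all tested genes), with a list median of 0.01. Vegfc (0.59, adjusted p = 0.297) and Vegfd (0.39, adjusted p = 0.396), ligands that signal through Flt4 with Nrp2, and Vegfa (0.27, adjusted p = 0.385) were the 3 higher ones, each without overlap. Pgf, the placental growth factor and a ligand of Flt1, was the lower one at -0.73 (SE 0.12, adjusted p = 0.0949), also without overlap. Their receptors Flt1 (0.00), Kdr (-0.05) and Flt4 (0.12) overlapped between the genotypes.

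Of 12 tested co-receptors of semaphorins, 2 were higher and 2 lower at that unadjusted p (again beside 7.10% and 4.81% of all tested genes), with a list median of -0.07. Itga1 (0.48), a chain of the collagen-binding integrin that also binds Sema7a, and Tyrobp (0.54), a signalling adaptor of myeloid cells, were the higher ones. L1cam (-0.27), an adhesion partner of Nrp1, and Trem2 (-0.40), a myeloid receptor that joins Plxna1 and Tyrobp, were the lower ones. The integrin chain Itgb1, on the same list, read -0.39 (adjusted p = 0.492 from limma), with every Notch3-/- pool lower. Tyrobp and Trem2 overlapped between the genotypes. Of 29 tested effectors inside the cell, 1 was higher and 4 were lower by the same measure (7.10% and 4.81% over all tested genes), with a list median of -0.02. The lower ones were Dpysl3 (-0.67, adjusted p = 0.206), a collapsin response mediator, Rnd2 (-0.36), a plexin-binding GTPase, Mical2 (-0.37), an actin-oxidising enzyme, and Farp1 (-0.26). The higher one was Farp2 (0.27), an exchange factor that acts downstream of A plexins. Of 14 tested Slit, Robo, netrin and other guidance genes, Slit2, a secreted ligand of Robo receptors, read 0.49 (adjusted p = 0.182) and was the 1 gene with an unadjusted p under 0.05, a threshold that 11.9% of all tested genes met. That list had a median of 0.02.

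**Figure D4:**
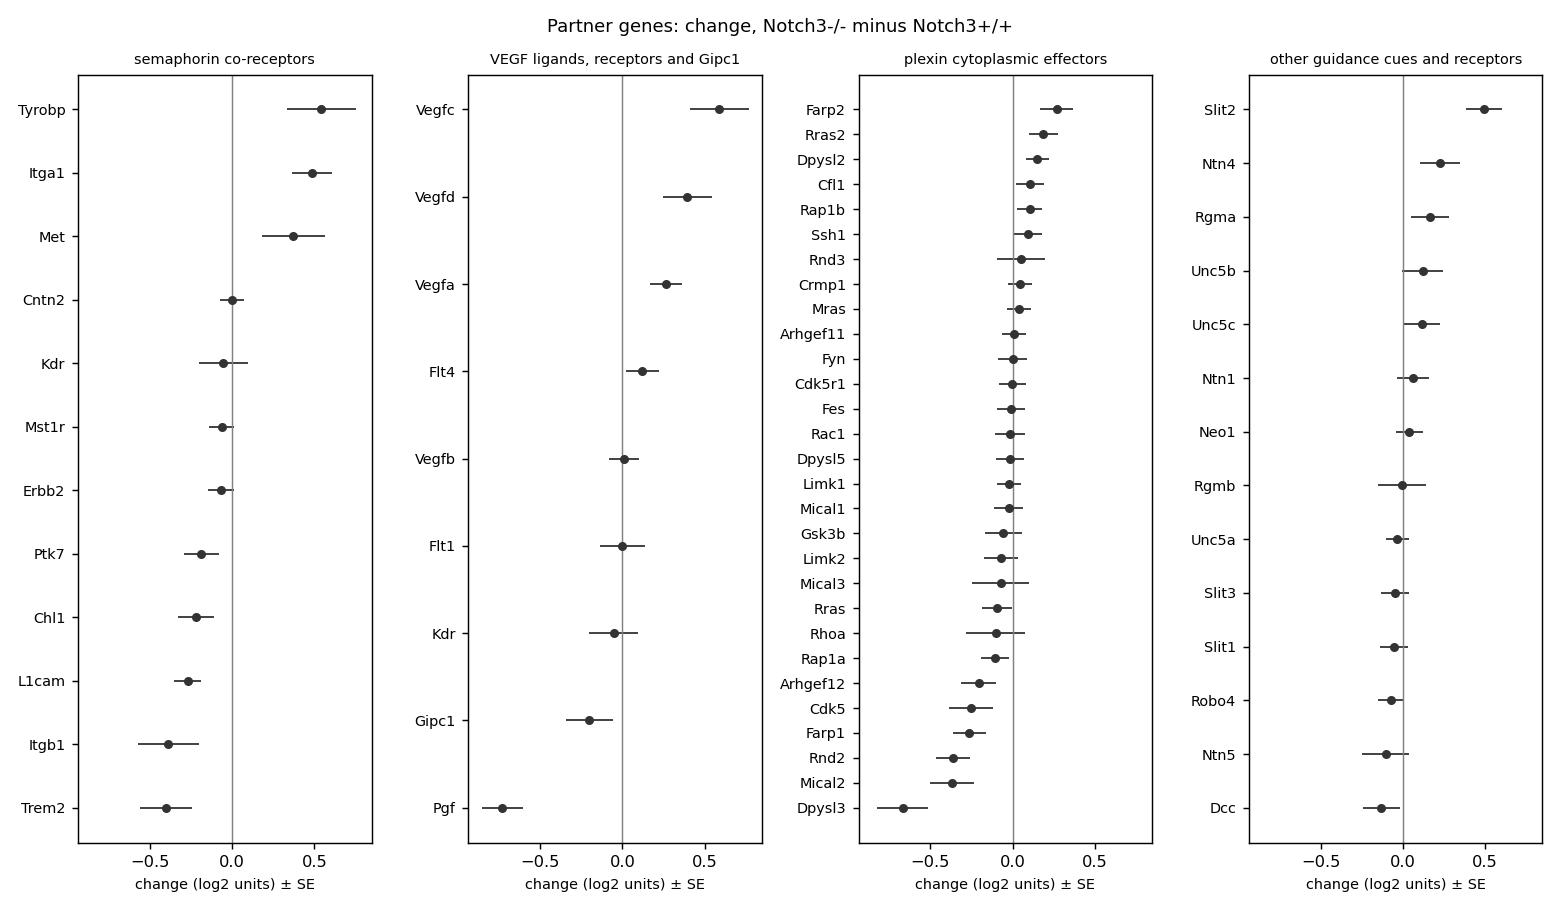
Change of each tested partner gene by its brightest probe set, in log2 units with its SE from limma, in 4 lists: co-receptors, VEGF ligands and receptors, intracellular effectors, and other guidance cues. Vegfc at 0.59 and Pgf at -0.73 mark the ends of the VEGF list, and the effectors run from -0.67 (Dpysl3) to 0.27 (Farp2).

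Markers of several cell types differed between the same pools in which Nrp2 and Sema3d read higher. The mean of the 4 tested lymphatic endothelial markers lay at 6.35 to 6.57 with Notch3 and at 6.80 to 6.91 without it, and all 4 were positive. Lyve1 (0.76) and Pdpn (0.61), also made by macrophages and fibroblasts respectively, gave most of this, Flt4 read 0.12 and Reln 0.02, and Prox1, the defining factor of lymphatic endothelium, read 2.04 to 2.23 in all arrays, below the filter. The 9 fibroblast markers averaged 11.19 to 11.35 and 11.42 to 11.55 without overlap, 7 of them positive. Of these 1, Dpt, passed (0.58, adjusted p = 0.0499 from limma), where 0.322% of all tested genes did. Dpt, Pi16 (0.58), Mfap5 (0.35) and Cd34 (0.22) were separate between the genotypes. Pdgfra (0.15), Lum (0.04), Dcn (0.01), Col1a1 (-0.04) and Col1a2 (-0.05) overlapped, so the higher list mean was not general to its members.

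The 9 macrophage markers, all positive, had a median change of 0.50. They averaged 6.59 to 7.29 in Notch3+/+ pools, where replicate 3 was lowest, and 7.27 to 7.64 with Notch3 deleted. The 8 mast cell markers, all positive too, had a median change of 0.715 and averaged 6.19 to 7.13 and 6.98 to 7.52. Only Notch3+/+ replicate 1 reached the Notch3-/- range in these lists. At an unadjusted p under 0.05 from limma, 6 macrophage and 4 mast cell markers were higher and 0 lower (7.10% and 4.81% of all tested genes). None passed by its brightest probe set, and 1 macrophage gene passed on another probe set. Venous endothelial markers, where Nrp2 is known from, averaged 8.07 to 8.12 and 7.98 to 8.12, with 2 positive and 2 negative. Endothelial markers averaged 9.09 to 9.20 and 8.88 to 9.03, with 8 of 10 negative. Adipocyte markers averaged 8.23 to 8.26 and 7.99 to 8.14, with 5 of 6 negative. Plin4 (-0.38) and Cidea (-0.23) were separate, while Pnpla2 (-0.24), Lipe (-0.18), Adipoq (-0.0033) and Fabp4 (0.06) overlapped. Keratinocyte markers averaged 4.56 to 4.66 and 4.81 to 4.94, with 4 of 4 positive. Of these, Krtdap (0.60) alone was separate, and Krt5 (0.20), Lor (0.16) and Krt10 (0.08) overlapped. Krt14 read 2.71 to 2.86 in all arrays, below the filter. Smooth muscle (10.52 to 10.85), Schwann cell (7.26 to 7.45), skeletal muscle (5.68 to 6.51) and lymphocyte (5.09 to 5.65) means overlapped or met between the genotypes. The lymphocyte mean rests on 2 tested markers, Cd3e (-0.19) and Ptprc (0.60). Of the 7 smooth muscle markers, Cnn1 (0.51) was higher and Smtn (-0.58) and Myocd (-0.39) lower, each without overlap and none passing. Acta2 (0.05), Myh11 (0.04), Tagln (-0.06) and Lmod1 (-0.26) overlapped. At an unadjusted p under 0.05 from limma, 3 Schwann cell and 3 skeletal muscle markers were lower and 0 higher (beside 4.81% and 7.10% of all tested genes). The part of these cell types in the values of Nrp2, Sema3d and the other members was not tested.

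**Figure D5:**
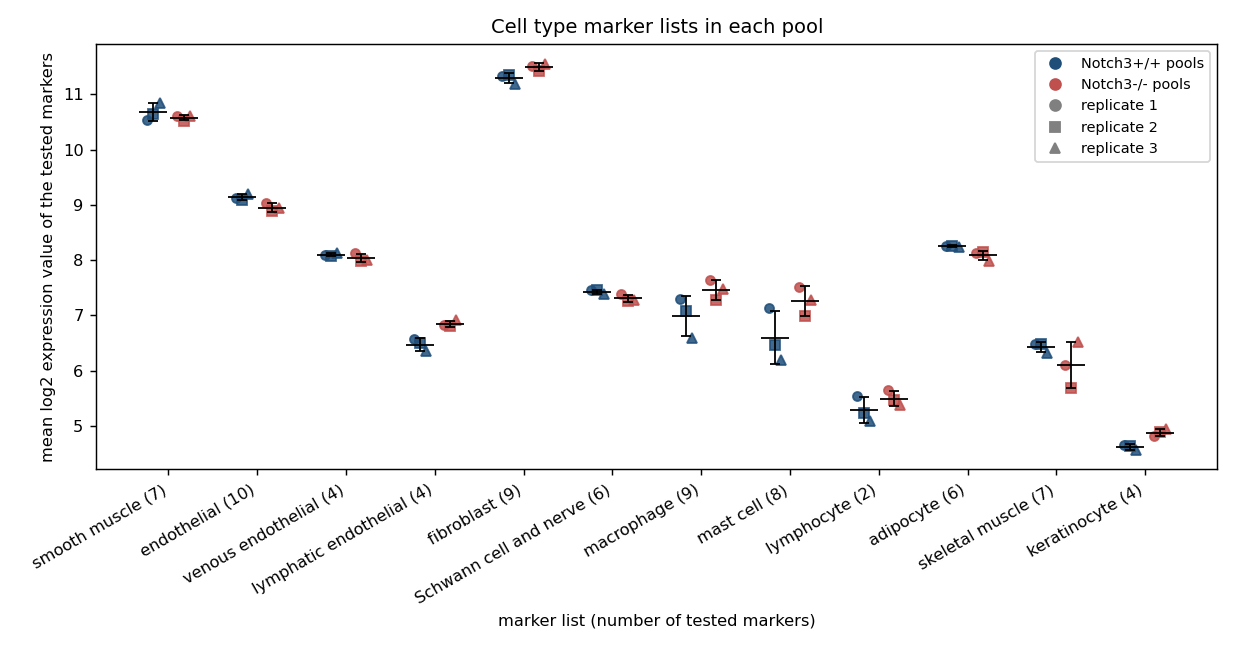
Mean log2 expression value of the tested markers of 12 cell types in each pool, with Notch3+/+ in blue, Notch3-/- in red, a symbol per replicate number and black bars for the mean ± SD over 3 pools. Lymphatic, fibroblast and keratinocyte means are higher and endothelial and adipocyte means lower in all Notch3-/- pools. The macrophage and mast cell means overlap only through Notch3+/+ replicate 1, and all of their tested markers had positive changes.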

How the data were processed

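The authors deposited 1 log2 value for each probe set and array, computed with RMA per the submitters' processing notes, which state neither a version nor a chip definition. RMA normalizes arrays to shared quantiles and compresses differences of dim probe sets. Values ran from 1.38 to 13.38, and the 6 array medians from 4.50 to 4.57. With 3 arrays per genotype, precision is limited by their number. Probe sets were named from the platform annotation, with symbols updated through gene numbers to RefSeq (GRCm38.p6) for 34741 of 34945 probe sets with 1 symbol. The 64 chip controls and probe sets with a mean under the 40th percentile (3.83) were left out, which left 27027 probe sets and 12732 genes. Differences were tested with limma 3.58.1 (lmFit, eBayes) in R 4.3.3 with genotype as the only term, two-sided. The fit was also run on simulated arrays, with no outcome given here.

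The members, the 4 partner lists and the 12 marker lists were chosen with earlier results of these data known, so their counts are descriptions. Named with values were all Nrp1 and Nrp2 probe sets, the 5 members with the highest mean, the 15 with the smallest unadjusted p, any that passed, and up to 4 genes per partner list by unadjusted p. Sema3d's second probe set, other second probe sets, further partners, the markers, the promoters with their motifs and the within-array contrasts were added after their values were seen. Pools are biological replicates per the labels. The p-values set the genotype difference against the spread between pools, which limma moderates over all tested probe sets. The spread between animals within a pool is not seen. Settings varied were the level filter, normalization, variance model, array weights, replicate number as a block, averaging of probe sets and omission of each array. Deviations from the group means correlated at 0.242, 0.046 and -0.067 for replicate numbers 1, 2 and 3. With 3 arrays per genotype, these values cannot decide whether pools of equal number shared anything. The replicate numbers of the sample titles also differ from those in the sample descriptions, so a block on them may carry no meaning.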

Additional observations from a re-analysis of the deposited data

How the results depend on the processing

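Of 36 changes recomputed under 14 settings, 25 kept their sign throughout, among them those of Nrp2, Sema3d, Sema3c, Sema3g, Plxnb3, Plxnb1 and Plxnd1. The number of members that passed by 1 probe set per gene, 0 as reported, was 3 with array weights (Nrp2, Sema3d and Sema3c), 2 with all probe sets of a gene averaged (Nrp2 and Sema3d), 1 with the replicate number as a block (Sema3d) and 0 to 1 with an array left out. The number of member probe sets that passed, 1 as reported, was 8 with array weights, 6 of them higher and 2 lower (Sema4f 1439768_x_at at -0.42 and Sema6d 1448060_at at -0.31, adjusted p = 0.0327 and 0.0447 from limma), 2 with a further quantile normalization and 2 with centring on array medians, where Sema3d's 1453148_at joined (adjusted p = 0.0446 and 0.0449 from limma), and 0 to 1 with an array left out. Of the 4 Nrp2 probe sets, 1 as reported, 3 passed with array weights, 0 with the block and 0 to 1 with an array left out. Under the block the change of 1456778_at stayed at 0.81 with an adjusted p of 0.0934 from limma, and 2 of 6 arrays correlated best with their own number. As titles and descriptions number the pools differently, the block values are no measure of a weaker or stronger effect. Of the partner genes 4 passed with array weights (Pgf, Slit2, Dpysl3 and Itga1). Array weights raised the calls over all 27027 tested probe sets from 68 to 978, and the cause was not tested. Of the same 27027 probe sets, 77 passed with the further quantile normalization, 86 with centring and 57 with the block. With an array left out, between 13 and 62 passed. With all probe sets of each gene averaged, 62 of 11916 tested genes passed.

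Signs turned in 11 small changes, none of which had passed. With an array left out, Plxna2 ranged from -0.228 to 0.182, Plxnb2 from -0.15 to 0.10, Sema3b from -0.0267 to 0.248, Sema4c from -0.06 to 0.10, Sema4d from -0.205 to 0.105, Sema4g from -0.207 to 0.0933, Sema6c from -0.105 to 0.05, Sema7a from -0.0133 to 0.192 and Nrp1 1457198_at from -0.0533 to 0.085. With array weights Plxna2 read -0.21, Plxnb2 0.0232, Sema4c -0.0406, Sema7a -0.0295 and Nrp1 1457198_at -0.10. With probe sets averaged Plxna1 read -0.0067 and Sema7a -0.0317, and with centring Sema6b read 0.0033 and Sema6c 0.0167.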
